A study of Mus musculus with 4 samples.

Results

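Lactate dehydrogenase and creatine kinase were each followed through their isoform transcripts along the mouse tibialis anterior, a mostly fast-twitch muscle of the shin. The genes are Ldha and Ldhb, which encode the 2 common subunits of lactate dehydrogenase, and Ckm, Ckmt2 and Ckb, which encode muscle, mitochondrial and brain-type creatine kinase. They were chosen by name, as the rows of the deposited tables that carry 1 of these 5 symbols alone, and all 5 were found in every muscle among 28989 single-gene entries. Of the 5, 4 had enough counts to be tested along the muscle, and Ckb did not.

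Lactate dehydrogenase interconverts pyruvate and lactate and is a tetramer of A and B subunits. The A subunit prevails in fast glycolytic fibres, and the B subunit prevails in heart and in oxidative fibres, which take up lactate and burn it. Creatine kinase moves high-energy phosphate between ATP and creatine: the mitochondrial enzyme charges creatine where ATP is made, and the muscle enzyme spends phosphocreatine where myosin and the calcium pump use ATP.

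The data came from 4 muscles of 1 group, labelled only as murine tibialis anterior, with no strain, age, sex, genotype or treatment in the sources used here. By TOMO-seq, a muscle is cut into serial cryosections whose RNA is barcoded section by section, here by CEL-Seq2, which counts the 3' ends of transcripts. The authors kept 37, 45, 46 and 43 sections of muscles 1 to 4, and the sections were grouped here into 5 zones of equal length in the order of their barcode numbers. Zone 1 is called the first end and zone 5 the last end, since the labels do not say which end of the muscle either is. No label states whether the 4 muscles are from different animals, so p-values cover only variation within these samples, which may be technical. The edgeR p-values rest on residual variation over all 20 zone sums, not on the spread of the 4 muscles' differences.

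The kept sections held 86190 to 1159697 transcripts each, and the zone sums 1989683 to 6604613. Muscle identity was checked with Acta1, Tnnt3, Myh4 and Ckm, whose summed level ran from 23103 to 32412 CPM (each sum divided by its library total and TMM factor, as edgeR gives it) over zones 1, 3 and 5. Muscles 1 and 2 shared 1 set of section barcodes and muscles 3 and 4 another, and the set is treated as a batch.

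The promoters of the paired isoforms are shown first. Ldhb and Ckmt2 declined together along the muscle while Ldha and Ckm were not called, and a part of the promoter sequences in this was not tested. Each window is the RefSeq sequence of GRCm38.p6 from 250 bases before to 50 bases after the gene's start, 5′ to 3′ on the gene's strand. The start is that of a RefSeq transcript: the Ldha and Ckm windows lie inside the GENCODE spans given at the end, whose outermost transcripts begin further upstream. Capitals mark E-boxes (CANNTG, the kind of site bound by MyoD and related factors) and the core of the hypoxia response element (ACGTG).
Ldha: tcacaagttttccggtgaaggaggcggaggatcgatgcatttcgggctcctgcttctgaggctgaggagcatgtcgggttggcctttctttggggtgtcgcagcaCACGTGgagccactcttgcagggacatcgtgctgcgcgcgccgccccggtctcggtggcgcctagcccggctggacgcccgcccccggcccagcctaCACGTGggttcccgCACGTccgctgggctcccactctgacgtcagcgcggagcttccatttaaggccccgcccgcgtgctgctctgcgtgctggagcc
Ldhb: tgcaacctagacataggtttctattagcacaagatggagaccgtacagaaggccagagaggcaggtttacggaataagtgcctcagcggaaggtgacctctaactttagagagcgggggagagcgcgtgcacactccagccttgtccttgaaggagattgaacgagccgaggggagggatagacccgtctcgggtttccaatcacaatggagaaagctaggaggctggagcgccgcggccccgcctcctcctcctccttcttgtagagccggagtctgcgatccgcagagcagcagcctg
Ckm: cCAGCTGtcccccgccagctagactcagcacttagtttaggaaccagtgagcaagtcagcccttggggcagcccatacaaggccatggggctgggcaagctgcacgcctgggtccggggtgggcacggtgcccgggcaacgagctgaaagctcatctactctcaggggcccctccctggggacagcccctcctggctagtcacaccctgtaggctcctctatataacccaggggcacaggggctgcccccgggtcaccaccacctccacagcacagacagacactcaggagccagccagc
Ckmt2: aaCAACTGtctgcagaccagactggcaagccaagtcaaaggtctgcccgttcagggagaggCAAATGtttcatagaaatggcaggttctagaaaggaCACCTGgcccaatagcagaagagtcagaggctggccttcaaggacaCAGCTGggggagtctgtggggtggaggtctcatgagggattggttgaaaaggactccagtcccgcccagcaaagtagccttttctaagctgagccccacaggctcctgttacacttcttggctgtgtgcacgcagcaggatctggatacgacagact
The windows lie at chr7:46845554-46845853 on the plus strand for Ldha, chr6:142507908-142508207 on the minus strand for Ldhb, chr7:19410844-19411143 on the plus strand for Ckm and chr13:91876836-91877135 on the minus strand for Ckmt2.

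The search covered both strands. Ldha held ACGTG on 1 or both strands at 3 places, of which the 2 at -145 and -48 from the start read CACGTG and so are also E-boxes. The core occurs at least once in 19.6% of all 32851 promoter windows of this length. Ckmt2 held 4 E-boxes, at -248, -189, -153 and -107, and Ckm 1 at -249, against 72.3% of windows with at least 1. How many windows hold 3 cores or 4 E-boxes was not counted, so these numbers of matches are not read as unusual. The Ckm match and the Ckmt2 match at -107 have the same letters, CAGCTG. A further Ldha window, starting 1278 bases downstream, held 2 E-boxes. The Ckb window, not shown, held TATAAA at -28 (13.6% of windows) inside a MEF2 match (3.19% of windows). Searches for AAGGTCA (4.72% of windows) and TCAAGGTCA (0.423%), the half-site of nuclear receptors and its longer form bound by oestrogen-related receptors, matched none of the 5 genes, and no motif searched matched the Ldhb window. The windows also differed in base composition: the Ldha window shown held 30 CG pairs, Ckb 22, Ldhb 17, Ckm 7 and Ckmt2 4, against a median of 7 over all windows.

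The order of the levels was the same in all 4 muscles. Because CEL-Seq2 takes 1 end per transcript, the levels are not divided by gene length. Ckm averaged 9341, 8814, 5963 and 7789 CPM over the zones of muscles 1 to 4, and Ldha averaged 1098, 939, 1367 and 1471. Ckmt2 followed with 373, 335, 330 and 400 CPM. Ldhb had 34.7, 30.1, 22.3 and 19.5 CPM, and Ckb 1.11, 1.02, 0.839 and 1.67. No neighbours in this order overlapped between muscles. Myh4, the myosin of fast type 2B fibres, averaged 6537 CPM, and Myh2, that of type 2A fibres, 363 CPM.

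At the level of the whole muscle, the B subunit was a small part of lactate dehydrogenase transcripts. Ldhb made up 2.96% of Ldha plus Ldhb in muscle 1 (95% exact binomial interval 2.74 to 3.18) and 3.26% in muscle 2 (2.9998 to 3.53). It made up 1.61% in muscle 3 (1.49 to 1.74) and 1.31% in muscle 4 (1.18 to 1.45). The intervals of muscles 1 and 2 lay above those of muscles 3 and 4 and cover counting error only. Ckmt2 amounted to 3.94, 3.93, 5.61 and 5.23 transcripts per 100 of Ckm in muscles 1 to 4, so here muscles 3 and 4 were the higher pair.

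These differences between muscles follow the barcode sets, and the muscle and its barcode set cannot be told apart. The Ldhb share was 2.13 times as high on average in muscles 1 and 2, and Ckmt2 per Ckm 1.38 times as high in muscles 3 and 4. For each, the 2 sets did not overlap, and the two-sided exact permutation test of 2 muscles against 2, added after the values were seen, gave p = 0.333 (adjusted p = 0.467 over 7 quantities), the smallest it can give. The scaled levels of Ldha, Ldhb and Ckm likewise did not overlap between the sets (exact permutation p = 0.333 for each), and those of Ckmt2 and Ckb did. The share of all genes without overlap between the sets was not counted. How many of the isoforms lacked overlap is therefore not read as a result. Myh2 averaged 612 and 507 CPM in muscles 1 and 2 against 210 and 124 in muscles 3 and 4, and the type 2X myosin Myh1 1213 and 1017 against 551 and 556. The part of these fibre myosins in the Ldhb share was not tested.

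**Figure D1:**
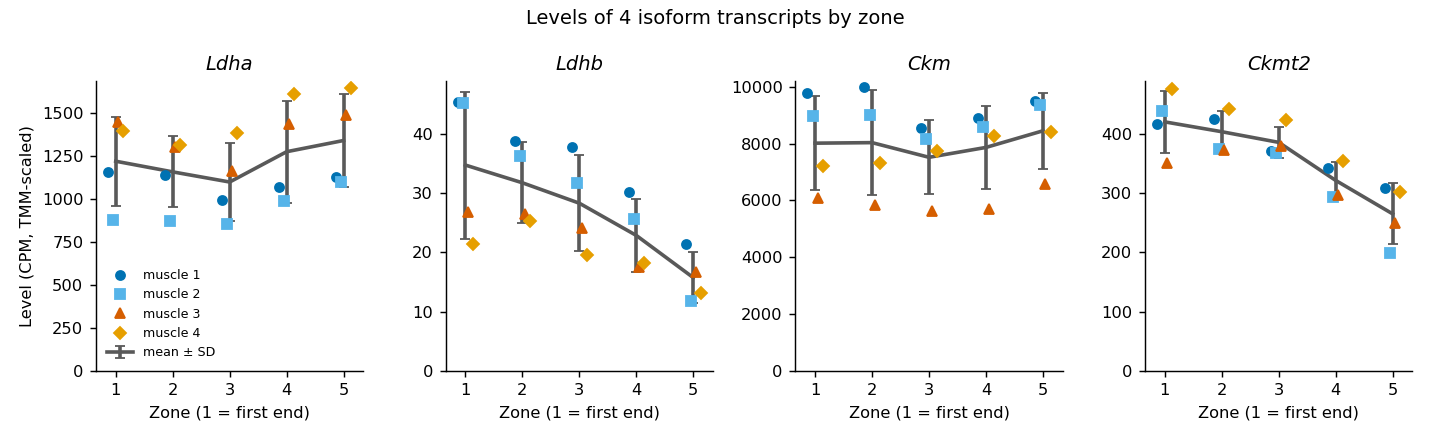
Level of Ldha, Ldhb, Ckm and Ckmt2 (CPM scaled by TMM, linear axes from 0) in zones 1 to 5, where zone 1 is the first end. Points are the 4 muscles, and the line and bars are their mean ± SD: the Ldhb mean falls from 34.7 to 15.7 CPM and the Ckmt2 mean from 420 to 265, while Ldha and Ckm show no such fall.

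Along the muscle, Ldhb and Ckmt2 were higher at the first end than at the last, and Ldha and Ckm were not called. These were 2 of the 4 tested isoforms, both higher, where 2.04% of all 9317 genes tested were higher at the first end, 1.14% were lower and 3.18% differed in either direction. In bulk sections, fewer oxidative fibres and less RNA of these genes per fibre cannot be told apart.

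Ldhb, the oxidative-type subunit, had 45.3, 45.2, 26.9 and 21.4 CPM in zone 1 of muscles 1 to 4 and 21.4, 11.8, 16.6 and 13.1 CPM in zone 5. In every muscle zone 1 was the higher, and across muscles the lowest zone 1 value (21.44) lay just above the highest zone 5 value (21.38). The fitted log2 difference was 1.05 ± 0.13 (SE), a 2.08-fold higher level at the first end (edgeR adjusted p = 1.20e-08), from 1.08, 1.92, 0.68 and 0.70 in muscles 1 to 4. Muscle 2 had the largest difference, and without it the value was 0.86. Within the barcode sets it was 1.38 in muscles 1 and 2 and 0.68 in muscles 3 and 4 (edgeR adjusted p = 1.04e-07 and 0.0414).

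Ldhb fell at every step of the zone means, and most between zones 4 and 5. Its mean was 34.7 ± 12.4 CPM (SD, n = 4) in zone 1, 31.7 ± 6.85 in zone 2, 28.3 ± 8.10 in zone 3, 22.8 ± 6.10 in zone 4 and 15.7 ± 4.28 in zone 5. Muscles 1, 2 and 3 declined at every step, and muscle 4 was highest in zone 2, at 25.2 CPM. The zone sums behind these values held 29 to 177 Ldhb transcripts, the fewest in zone 5 of muscle 2.

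Ckmt2, the sarcomeric mitochondrial creatine kinase, had 416, 438, 352 and 476 CPM in zone 1 and 309, 199, 250 and 302 CPM in zone 5. All 4 zone 1 values lay above all 4 zone 5 values, as they did for Ldhb and for 0.955% of the genes tested (1.91% did not overlap in either direction). The fitted log2 difference was 0.66 ± 0.08 (SE), a 1.58-fold higher level at the first end (edgeR adjusted p = 4.81e-09), and muscles 1 to 4 gave 0.43, 1.14, 0.49 and 0.65. Muscle 2 again had the largest difference, and the value without it was 0.53.

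Ckmt2 stayed nearly level over the first zones and fell in the last ones. Its mean was 420 ± 52.03 CPM (SD, n = 4) in zone 1, 404 ± 35.3 in zone 2, 386 ± 26.2 in zone 3, 322 ± 31.3 in zone 4 and 265 ± 51.3 in zone 5. In all 4 muscles zone 4 lay below zone 3, and zone 5 below zone 4. Ldhb and Ckmt2 were also the 2 of these 4 isoforms with a difference among the 5 zones of any shape (edgeR adjusted p = 1.31e-08 and 2.09e-09), against 3.98% of the genes tested.

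Ldha, the glycolytic-type subunit, had 1159, 880, 1447 and 1395 CPM in zone 1, 996, 857, 1161 and 1383 in zone 3, and 1129, 1098, 1489 and 1648 in zone 5. Both ends lay above the middle in each muscle, but the range of the muscles overlapped between zones. From first to last end the fitted log2 difference was -0.14 ± 0.07 and did not pass (edgeR adjusted p = 0.412). The mean of the 2 ends minus the middle was 0.22 ± 0.06, with 0.20, 0.20, 0.34 and 0.13 in muscles 1 to 4, and did not pass either (edgeR adjusted p = 0.0604).

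That value lay near the threshold, and Ldha was called at the ends in 5 of the 16 other settings run, such as DESeq2 (0.23, adjusted p = 0.00229) and 10 zones (0.33, edgeR adjusted p = 2.06e-04). Its adjusted p was 0.650 when sums were scaled by their totals alone, with a difference of 0.14. Of the 4 tested isoforms none was called between ends and middle, where 1.45% of all genes were (0.623% higher and 0.826% lower at the ends).

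Ckm, the cytosolic muscle creatine kinase, was the most abundant of the 5 transcripts and had the smallest fitted differences of the 4 tested, in both contrasts. It had 9785, 8961, 6101 and 7216 CPM in zone 1 and 9487, 9355, 6567 and 8394 CPM in zone 5. The 2 ends overlapped. The fitted log2 difference was -0.08 ± 0.08 between the ends (edgeR adjusted p = 0.746) and 0.13 ± 0.07 between ends and middle (edgeR adjusted p = 0.481), so neither passed.

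For both ends against the middle, the fitted difference from the middle was -0.26 ± 0.10 for Ldhb and -0.21 ± 0.07 for Ckmt2 (edgeR adjusted p = 0.221 and 0.0783), and neither passed. For both genes the mean of the ends lay below the middle in 4 of 4 muscles. Zone 5 alone was below zone 3 in every muscle. Zone 1 was above zone 3 in every muscle for Ldhb, and in muscles 1, 2 and 4 for Ckmt2. With 10 zones, where only the first and last of the 10 count as ends, both genes were called, at -0.48 and -0.28 (edgeR adjusted p = 0.0349 and 0.0115).

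**Figure D2:**
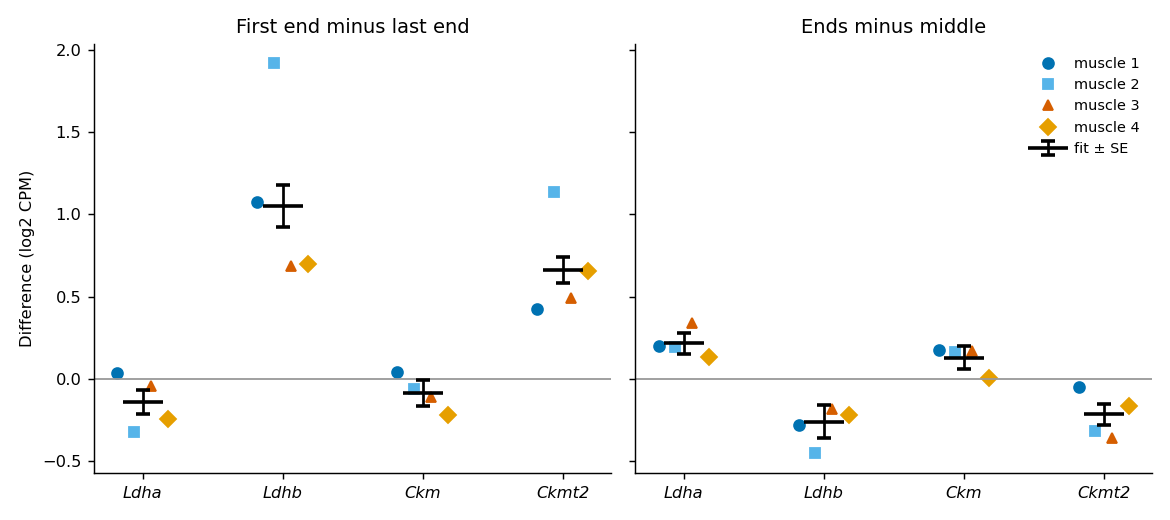
Log2 difference in level between first and last end (left) and between the mean of both ends and the middle (right) for the 4 tested isoforms. Coloured points are the 4 muscles, and black bars the fitted value ± SE: for first minus last, all 4 points of Ldhb and of Ckmt2 lie above 0, with muscle 2 the highest.

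Isoform ratios within a zone need no scaling between libraries. In zone 1, Ldhb made up 3.78, 4.90, 1.82 and 1.52% of lactate dehydrogenase transcripts in muscles 1 to 4, and in zone 5 it made up 1.86, 1.06, 1.11 and 0.790%. Every muscle had the higher share at the first end. Put the other way, there were 25.5, 19.4, 54.1 and 64.97 Ldha transcripts per Ldhb transcript in zone 1 and 52.7, 92.99, 89.4 and 126 in zone 5. The log2 ratio of Ldhb to Ldha was 1.25 ± 0.69 higher at the first end (SD, n = 4), higher in 4 of 4 muscles (two-sided exact permutation test, p = 0.125, adjusted p = 0.188 over 6 tests). With 4 muscles 0.125 is the smallest p this test can give, so no ratio could pass the threshold.

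Ckmt2 per 100 Ckm was 4.25, 4.89, 5.76 and 6.59 in zone 1 and 3.26, 2.13, 3.80 and 3.60 in zone 5. All zone 1 values lay above all zone 5 values. The log2 ratio was 0.76 ± 0.35 higher at the first end (SD, n = 4; exact permutation p = 0.125, adjusted p = 0.188), from 0.38, 1.20, 0.60 and 0.87 in muscles 1 to 4. Only muscle 4 fell at every step. Muscles 1 and 3 were highest in zone 3, at 4.35 and 6.74, and muscle 2 had 4.15 in zone 2 and 4.50 in zone 3. In all 4 muscles the ratio was lower in zone 4 than in zone 3 and lowest in zone 5.

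Both ratios were also lower in the mean of the ends than in the middle. For Ldhb to Ldha the log2 difference was -0.50 ± 0.13 (SD, n = 4), and for Ckmt2 to Ckm it was -0.35 ± 0.18, each lower in 4 of 4 muscles (exact permutation p = 0.125, adjusted p = 0.188 for both). The Ldhb share in zone 3 was 3.65, 3.58, 2.03 and 1.39% in muscles 1 to 4. It lay above zone 5 in every muscle, below zone 1 in muscles 1, 2 and 4 and above zone 1 in muscle 3. Ckmt2 per 100 Ckm in zone 3 was 4.35, 4.50, 6.74 and 5.48, above zone 5 in every muscle. This value lay below zone 1 in muscles 2 and 4 and above zone 1 in muscles 1 and 3.

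Markers of fibre types and other cells were called between ends and middle as well. Myh2 was lower at the ends (-0.71 ± 0.09, edgeR adjusted p = 6.17e-07), and of 3 tested type 1 markers Myl3 was lower (-0.92 ± 0.13, edgeR adjusted p = 1.47e-06). Of 4 type 2B markers Mybpc2 was higher (0.27 ± 0.06, edgeR adjusted p = 0.0116). The type 1 markers summed to 41.8 to 97.3 CPM in zone 3, against 41.1 to 73.9 in zone 1 and 21.98 to 59.6 in zone 5. Of 5 tested Schwann cell markers 4 were lower at the ends, with sums of 22.8 to 32.4 CPM in zone 3, 11.1 to 41.1 in zone 1 and 9.59 to 13.98 in zone 5. Of 5 markers of fibro-adipogenic progenitors 2 were lower, while Col1a1 was at 0.43 ± 0.14 and did not pass (edgeR adjusted p = 0.108). Of 3 tested neuromuscular junction markers 2 were lower, as were 1 of 4 endothelial markers and the 1 tested macrophage marker. Of 4 tested tendon markers 2 were higher, as were 2 of 2 tested adipocyte markers. Of 5 erythrocyte markers 0 were called. Among all genes tested, 0.826% were lower and 0.623% higher at the ends. The part of these cells in the isoform ratios was not tested.

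**Figure D3:**
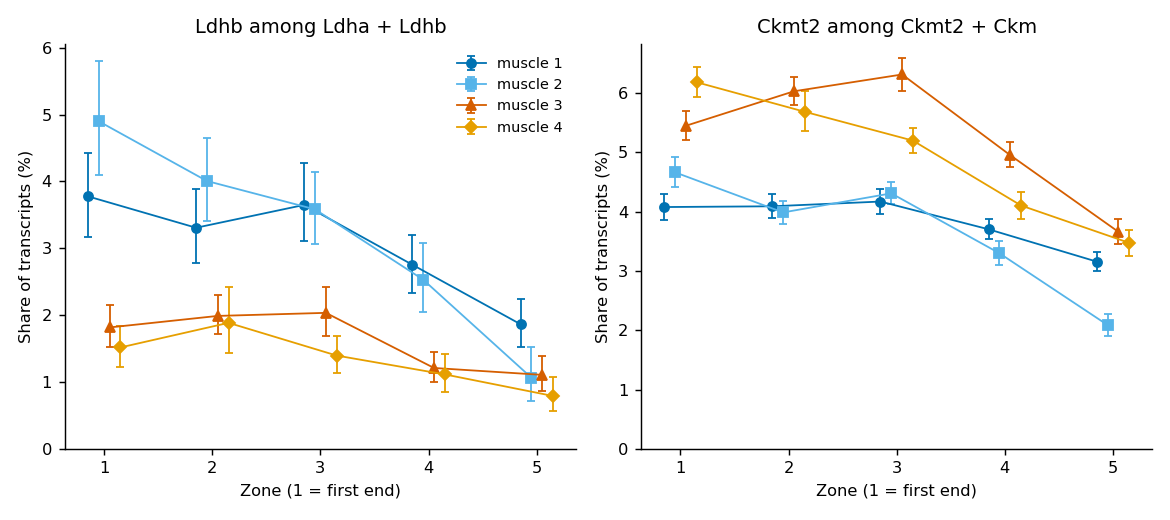
Share of Ldhb among Ldha plus Ldhb transcripts (left) and of Ckmt2 among Ckmt2 plus Ckm transcripts (right), in percent, by zone from the first end (1) to the last (5). Each line is 1 muscle, with 95% exact binomial intervals for counting error: zone 5 is the lowest point of every line, and muscles 1 and 2 lie above muscles 3 and 4 for Ldhb except in zone 5.

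Single sections varied widely around the zone values. The Ldhb share of a section ran from 0.624 to 4.88% in muscle 1 (median 2.97), 0.269 to 7.47% in muscle 2 (median 3.63), 0 to 3.05% in muscle 3 (median 1.50) and 0 to 3.32% in muscle 4 (median 1.22). Ldhb was seen in 169 of the 171 sections. The 2 sections without it held 104 and 95.1 Ldha transcripts, which allow up to 2.88 and 3.16 Ldhb transcripts per 100 of Ldha (3 counts). Across the sections of a muscle, Pearson's r between the Ldhb share and Ckmt2 per Ckm was 0.51, 0.55, 0.71 and 0.34 in muscles 1 to 4 (37, 45, 46 and 43 sections), which is a description, since both values of a section come from 1 library.

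Ckm was so abundant that many sections used most of the unique molecular identifiers (UMIs), the random 6-base tags by which copies of 1 transcript are counted once. Of 4096 possible UMIs, the section richest in Ckm used 3906 (95.4%), which the authors' correction for repeated draws turns into 12576 transcripts. Ckm used at least 90% in 5 of 171 sections, 4 of them in muscle 1 and 1 in muscle 3, and never reached the ceiling. At the highest value 1 more UMI would add 21.6 transcripts. The percent used followed the transcripts in the section, with Pearson's r of 0.920, 0.943, 0.972 and 0.964 in muscles 1 to 4 (a description over sections). With numbers of distinct UMIs in place of corrected counts, no call of a tested isoform changed, but the difference of Ckm between ends and middle went from 0.13 to 0.29 (edgeR adjusted p = 0.0943).

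**Figure D4:**
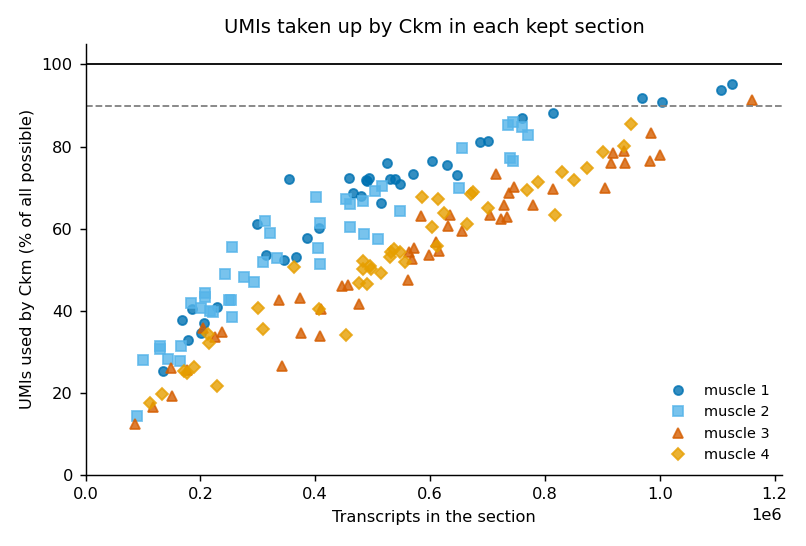
Percent of the 4096 possible UMIs that Ckm used in each of the 171 kept sections, against the total transcripts of the section, by muscle. The solid line is the ceiling at 100% and the dashed line 90%, which 5 sections pass. The highest lies at 95.4%.

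Ckb, the brain-type enzyme, was at the limit of detection. It had 22, 19, 25 and 31 transcripts in all kept sections of muscles 1 to 4, at most 4 in a section and none in 104 of 171 sections. A section without it may still hold up to 3. Ckb was absent from the authors' filtered tables and below the count filter of the fit. Its zone sums were 1 to 12 transcripts, too few to place it along the muscle. Relative to Ckm its log2 difference was -0.20 ± 1.60 between the ends (SD, n = 4; 2 muscles higher and 2 lower, exact permutation p = 1), but 0.63 ± 0.23 with 3 zones (exact permutation p = 0.125). It was -0.48 ± 0.45 between ends and middle (exact permutation p = 0.25, adjusted p = 0.30), with a pseudocount of 0.5.

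Transcripts that handle lactate and pyruvate mostly did not pass. Of 18 listed genes 12 were tested, and 1 was higher and 0 lower at the first end: Ldhd, the mitochondrial D-lactate dehydrogenase (0.54 ± 0.13, edgeR adjusted p = 0.00618). The list's median was 0.21, against -0.00 over all genes tested, and 9 of 12 had a positive difference. The lactate exporter Slc16a3 of glycolytic fibres was at -0.15 ± 0.09 (adjusted p = 0.469) and the importer Slc16a1 at 0.29 ± 0.17 (adjusted p = 0.513). The pyruvate carriers Mpc1 and Mpc2 were at 0.23 and 0.24, and Pdk4, which inhibits pyruvate dehydrogenase, at 0.24 (edgeR adjusted p = 0.133, 0.162 and 0.0778). None of the 12 was called between ends and middle, where the median was -0.00.

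Of 13 genes of creatine and phosphate transfer 11 were tested. At the first end Slc25a3, the mitochondrial phosphate carrier, was higher (0.36 ± 0.08, edgeR adjusted p = 0.00427) and Ampd1, the AMP deaminase of muscle, was lower (-0.29 ± 0.08, edgeR adjusted p = 0.0185). The list's median was 0.11. The ATP/ADP carrier Slc25a4 was at 0.22 ± 0.07 and did not pass (edgeR adjusted p = 0.0538), and the creatine transporter Slc6a8 was at 0.37 ± 0.19 (adjusted p = 0.425). Between ends and middle Ampd1 alone was called, higher at the ends (0.28 ± 0.07, edgeR adjusted p = 0.0103), and the median was 0.06. All 12 listed regulators were tested, among them Ppargc1a, Esrra and Hif1a, and 0 were called in either contrast, with a median of 0.18 between the ends and -0.07 between ends and middle.

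**Figure D5:**
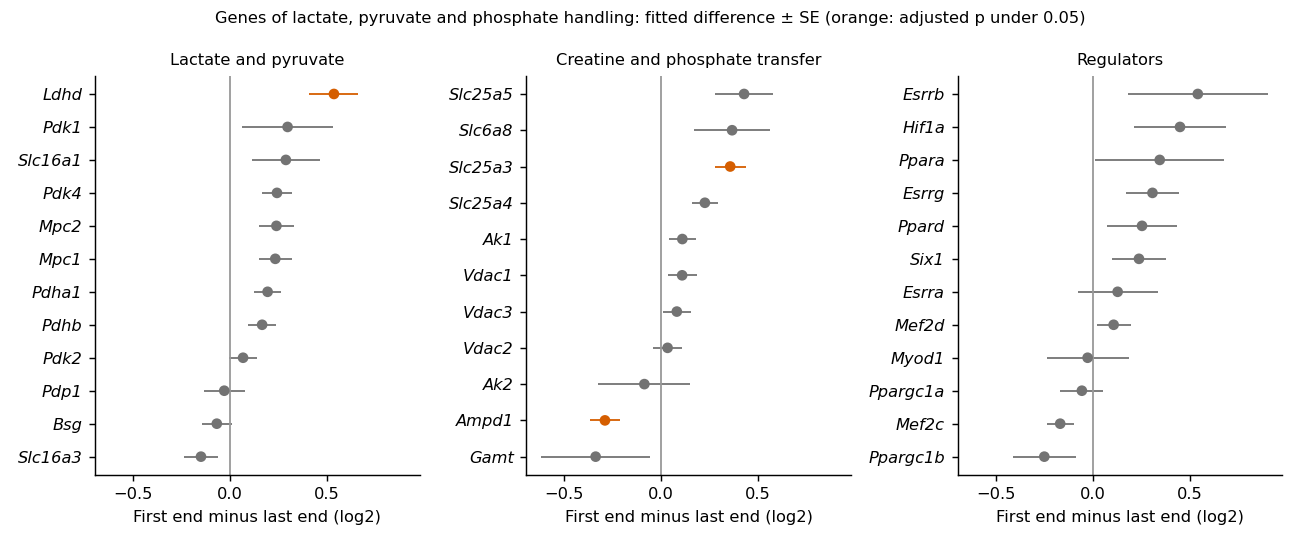
Fitted log2 difference between first and last end ± SE for the tested genes of 3 lists: lactate and pyruvate (12), creatine and phosphate transfer (11) and regulators (12). Orange marks an adjusted p under 0.05, reached by Ldhd, Slc25a3 and Ampd1. The other genes did not pass.

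Among genes outside the 5, those whose zone pattern was most like Ldhb were Fabp3, the fatty acid carrier of heart and oxidative muscle (r = 0.948), Oxct1, which activates ketone bodies (r = 0.940), and Mb, myoglobin (r = 0.922). The measure was Pearson's r over the 20 zone sums, on log2 CPM centred within each muscle, among 1364 genes with at least 30 CPM. For Ckmt2 they were Lpl, lipoprotein lipase (r = 0.974), Fabp3 (r = 0.970) and Fndc5 (r = 0.953). Ldha was most like Slc37a4, the glucose 6-phosphate carrier (r = 0.921), Pgm1, phosphoglucomutase (r = 0.912), and the proteasome subunit Psmc2 (r = 0.904). Ckm's closest were Ide, Vapa and Pcca, at 0.815, 0.805 and 0.765. Between the isoforms themselves, r was 0.944 for Ldhb with Ckmt2 and 0.749 for Ldha with Ckm, and it was -0.651 for Ldha with Ldhb and -0.744 for Ldha with Ckmt2. These values describe the 20 sums, which share 4 muscles and their scaling.

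Some markers of fibre types, but not all, were called in the same direction as Ldhb and Ckmt2, where 2.04% of all genes tested were higher and 1.14% lower. Of 8 type 1 markers 3 were tested, and Tpm3 (0.72 ± 0.17) and Casq2 (0.73 ± 0.14) were higher at the first end (edgeR adjusted p = 0.00460 and 8.99e-04). The third, the slow light chain Myl3, was at 0.15 ± 0.18 (adjusted p = 0.808), with -0.12, 2.21, -0.22 and -0.10 in muscles 1 to 4. The 8 markers summed to 41.1 to 73.9 CPM in zone 1 and 21.98 to 59.6 in zone 5, with none at 0, and Myh7, Myl2, Tnnt1, Tnni1 and Tnnc1 below the count filter. Myh1 was higher at the first end (0.29 ± 0.08, edgeR adjusted p = 0.0401), from 0.04, 0.89, 0.22 and 0.04 in muscles 1 to 4. Myh2 was at 0.17 ± 0.12 (adjusted p = 0.594), from -0.35, 1.09, -0.43 and 0.28. For all 3 of these genes muscle 2 had the largest difference, as for Ldhb and Ckmt2. Of 4 type 2B markers Actn3 (-0.37 ± 0.08) and Myh4 (-0.31 ± 0.08) were lower (edgeR adjusted p = 0.00146 and 0.0240), and the list summed to 11337 to 16554 CPM in zone 1 and 16650 to 19372 in zone 5. Myh4, like Ckm, used at least 90% of the UMIs in some sections, so its difference is uncertain.

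Blood moved with them too. All 5 erythrocyte markers were higher at the first end, with a median log2 difference of 1.68, and summed to 1342 to 4215 CPM in zone 1 and 604 to 1611 in zone 5. Of 5 tested smooth muscle and pericyte markers 2 were higher, with sums of 162 to 358 CPM in zone 1 and 158 to 204 in zone 5, and of 5 Schwann cell markers 2 were higher, with sums of 11.1 to 41.1 and 9.59 to 13.98 CPM. Of 4 tested tendon markers 3 were lower at the first end, with sums of 10.1 to 21.2 and 33.9 to 128 CPM. The ratio of zone 1 to zone 5 of the erythrocyte sum was 1.81, 4.46, 2.22 and 5.10 in muscles 1 to 4. For smooth muscle and pericytes it was 1.54, 0.919, 1.07 and 2.04, and for Schwann cells 1.41, 1.14, 1.28 and 4.29. For tendon it was 0.151, 0.315, 0.390 and 0.176. The first 3 lists were thus highest in muscle 4, while Ldhb and Ckmt2 differed most in muscle 2. The part of these cells in the Ldhb and Ckmt2 differences was not tested.

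The genes lie apart in the genome, in GRCm38 with GENCODE M21 annotation. Ldha spans chr7:46841475-46855627 and Ckm chr7:19404776-19422841, both on the plus strand. Ldhb spans chr6:142490249-142507957, Ckmt2 chr13:91853387-91876885 and Ckb chr12:111669361-111672338, all on the minus strand. Ckm and Ckmt2 overlap a gene on the opposite strand (A930016O22Rik and 1700119I11Rik), and their counts can include its transcripts, because whether strand was used in counting is not stated in the labels. The annotation names the pseudogenes Ldha-ps and Ldha-ps2, and Ckb-ps1 and Ckb-ps2, so reads of Ldha and Ckb could be divided among copies. Entries that name several genes held at most 0.145% of any isoform's count.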

How the data were processed

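RNA of single sections from 4 tibialis anterior muscles was extracted with TRIzol and primed by CEL-Seq2, per the labels' protocols. The submitters' processing notes name the aligner STAR (2.7.7a) and the build GRCm38. Which program counted reads, with which annotation and strand setting, is not given in the sources used here. For each muscle the authors deposited estimated counts per gene for 96 barcodes, and from the values these are UMI numbers corrected for repeated draws: at least 99.958% of nonzero values are within 0.001 of a whole UMI number. The authors also deposited filtered tables of a normalized signal, used here only to learn which sections they kept (matched within a relative tolerance of 1e-06).

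Entries naming several genes (0.580 to 0.930% of the counts) were left out. Counts were summed per muscle and zone, rounded and tested by the quasi-likelihood F-test of edgeR 4.0.16 (R 4.3.3), with muscle as a block, TMM factors, the filterByExpr filter and an adjusted p under 0.05 (Benjamini-Hochberg). This kept 9317 genes, and their biological coefficient of variation was 7.03%. Contrasts were zone 1 minus zone 5, the mean of zones 1 and 5 minus zone 3, and any difference among zones. SE were derived from the F statistic. Both SE and edgeR p-values rest on all 20 sums, not on the spread of the 4 muscles' differences, which can be wider. Between first and last end those differences ran from 0.68 to 1.92 for Ldhb, with a fitted SE of 0.13. For Ckmt2 they ran from 0.43 to 1.14, with a fitted SE of 0.08. Log2 isoform ratios of zone sums were tested with two-sided exact sign-flip permutation tests over muscles (Python 3.11.15, scipy 1.17.1). Gene identifiers were matched to GENCODE M21 (28689 of 28782 with counts in kept sections). The fit was also run on counts simulated with a common dispersion for all genes and equal proportions in every muscle. Such counts lack differences between muscles, so they do not show how the fit handles them.

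The genes, lists and tests were chosen with earlier results of these data known. Besides the 5 isoforms, genes are named from the lists of lactate and pyruvate, creatine and phosphate transfer, regulators and cell type markers, and as the 3 most like each isoform in zone pattern. Alternatives were other scaling, tools (DESeq2 1.42.0, limma 3.58.1), filters, zones, sections, UMI numbers, barcode sets and leaving out each muscle.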

Additional observations from a re-analysis of the deposited data

Results flagged for a closer look

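Of 56 sets of 4 muscle values checked for a muscle that stands far from the other 3, 2 were picked out, where chance picks about 1 in 20. The difference of Ckm between ends and middle was 0.0083 in muscle 4, against 0.17, 0.17 and 0.17 in muscles 1 to 3 (log2). Ckb in zone 3 was 2.13 CPM in muscle 4, from 11 transcripts, against 0.988, 0.761 and 0.795 CPM from 4 transcripts each.

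Ckm was also counted in barcodes outside the sections the authors kept, which the comparisons do not use. These barcodes held 3.07, 3.42, 1.90 and 1.91% of all Ckm transcripts of muscles 1 to 4, and 59 of 59, 51 of 51, 50 of 50 and 51 of 53 of them held more than 3. In them Ldhb made up 2.33% (95% exact binomial interval 1.34 to 3.76), 1.65% (0.793 to 3.01), 1.42% (0.615 to 2.78) and 0.837% (0.228 to 2.13) of lactate dehydrogenase transcripts.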

How the results depend on the processing

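Ldhb and Ckmt2 stayed higher at the first end and past the threshold in all 16 other settings run, with log2 differences of 0.68 to 1.38 and 0.50 to 0.76. Ldha and Ckm were not called between the ends in any. Between ends and middle Ldha was called with DESeq2 (0.23), 10 zones (0.33), mitochondrially encoded genes left out (0.22), genes near the UMI ceiling left out (0.22) and without muscle 4 (its range with each muscle left out was 0.18 to 0.25). Ldhb was called there with 10 zones (-0.48) and was at -0.55 with equal section weights in limma, not called (adjusted p = 0.0594), and Ckmt2 with 10 zones (-0.28) and with equal section weights in limma (-0.33). The Ldhb to Ldha ratio at the ends was -0.65 as a mean over sections and -0.92 with 10 zones, and the Ckb to Ckm ratio 0.11 as a mean over sections and 0.22 with 3 zones, against -0.48. Between the ends the Ckb to Ckm ratio was -0.20, but 0.63 with 3 zones, 0.39 with 10 zones, and -0.86 to 0.30 with each muscle left out, so its direction is not settled in either contrast. The cause of these shifts was not tested.

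Of all genes, 296 differed between the ends (190 higher, 106 lower). The count was 165 without TMM (36 higher, 129 lower, with the median gene at -0.11), 122 with equal weights (28 higher, 94 lower), 131 with 10 zones, 161 in muscles 1 and 2, 74 in muscles 3 and 4, and 87 to 201 with each muscle left out (87 without muscle 2, 180 without muscle 3, 195 without muscle 4). Between ends and middle 135 differed (58 higher, 77 lower). The count was 42 with 3 zones, 333 with 10, 44 in muscles 1 and 2, 55 in muscles 3 and 4, and 38 to 183 with each muscle left out (74 without muscle 2, 38 without muscle 3). That split was 16 and 88 without TMM, 15 and 115 with equal weights (median gene at -0.15), and 75 and 26 with DESeq2, whose adjusted p was missing for 27342 of 28782 genes. Ckm has no value with genes near the UMI ceiling left out. Every comparison along the muscle was made within muscles, with muscle as a block or as differences per muscle. Only the comparison of the barcode sets was made between muscles. Depth limits Ckb and the Ldhb share of single sections.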

Other observations

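The sections at the very start of muscles 2 and 3 were unlike each other, and both were chosen after their values were seen. The first section of muscle 2 had the highest Ckmt2 per 100 Ckm of that muscle, 7.12. The first section of muscle 3 had the lowest of its muscle, 1.12 (6.00 Ckmt2 and 537 Ckm transcripts), and no Ldhb. It was also the shallowest section of all, with 86190 transcripts. The lowest Ckmt2 per 100 Ckm of muscles 1 and 2, 2.02 and 1.27, lay in the last section of each.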
